A study of Mus musculus with 4 samples.

Results

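The HoxA cluster genes *Hoxa5*, *Hoxa7*, *Hoxa9*, *Hoxa10* and *Hoxa11* and the leukemic cofactor genes *Meis1*, *Pbx3* and *Mef2c* were examined in leukemic stem cells (LSCs) with and without CD37. The 8 genes were taken by name from the deposited expression values by a rule that used no measured value, although earlier results of these data were known. Of these, 7 were among the 17104 genes listed and all 7 were tested, whereas *Hoxa5* was not analysed here. Poly(A) RNA was sequenced from YFP+, c-kit+ bone marrow LSCs of male C57 mice carrying MLL-AF9 acute myeloid leukemia, at week 6 of the secondary transplantation. 2 libraries were CD37 fl/fl, in which *Cd37* is flanked by LoxP sites, and 2 were CD37-/-, in which *Cd37* was deleted by tamoxifen. According to the methods, both genotypes started from Lin- bone marrow cells with a Rosa26-CreERT2 allele, infected with an MLL-AF9-IRES-YFP retrovirus, and the CD37 fl/fl recipients were given corn oil. Cre was thus present in both groups but exposed to tamoxifen in one, so that the exposure and the deletion cannot be told apart. The replicates are called independent, but whether a library came from 1 mouse or from a pool is not given in the sources used here.

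HoxA proteins are homeobox transcription factors that keep hematopoietic progenitors immature and are silenced as myeloid cells mature. HOXA9 and HOXA10 bind DNA together with the TALE homeobox proteins MEIS1 and PBX3, and in MLL-rearranged leukemia the fusion protein holds *HoxA* genes and *Meis1* active. MEF2C is a MADS-box transcription factor that is also a known target of MLL fusions.

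Levels are given as FPKM per exon length, that is, fragments per kilobase of annotated exon, scaled by sequencing depth. The deposited FPKM had been divided by the whole genomic span with introns, and were brought to exon length so that genes could be compared with each other. *Hoxa9* was the most abundant of the 7 genes in both genotypes, with a mean of 58.1 (CD37 fl/fl) and 63.9 (CD37-/-), and it ranked 1108 among the 17045 genes with an exon length. In CD37 fl/fl LSCs it was followed by *Hoxa7* (43.9), *Mef2c* (20.8), *Hoxa10* (11.9), *Meis1* (7.17), *Hoxa11* (2.15) and *Pbx3* (1.34), and the last pair overlapped between libraries. In CD37-/- LSCs the order was *Hoxa9*, *Hoxa7* (28.8), *Hoxa10* (27.1), *Mef2c* (14.3), *Meis1* (11.5), *Hoxa11* (2.71) and *Pbx3* (1.85), and the libraries of *Hoxa7* and *Hoxa10* overlapped. Each member rested on between 37 reads (*Hoxa11*) and 7600 reads (*Hoxa9*) in a library.

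**Figure D1:**
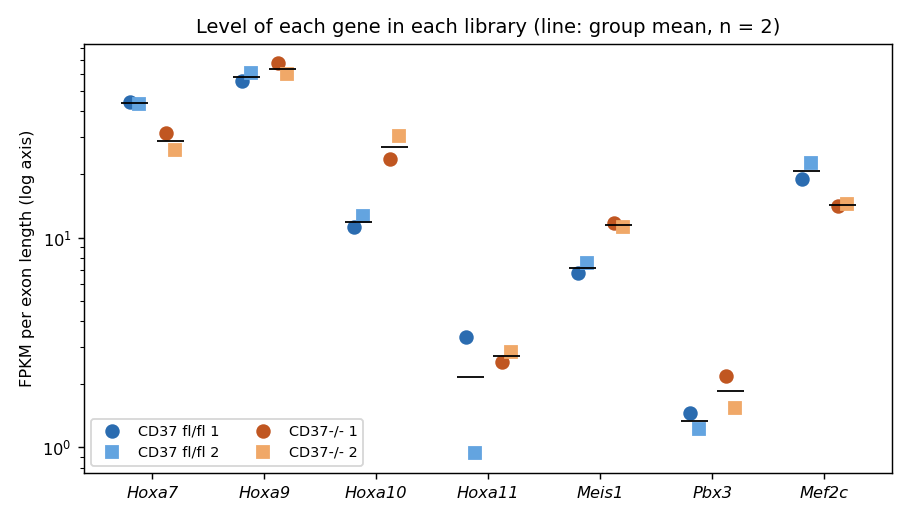
Level of each of the 7 genes (x axis) as FPKM per exon length on a log axis, with 1 point per library (blue, CD37 fl/fl; orange, CD37-/-) and a black line at the mean of each group (n = 2). *Hoxa10* and *Meis1* lie higher in both CD37-/- libraries, *Hoxa7* and *Mef2c* lie lower, and the *Hoxa11* libraries of CD37 fl/fl lie 3.61-fold apart.

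Deletion of CD37 went with more *Hoxa10* and *Meis1* and less *Hoxa7* RNA, each with an unadjusted p under 0.05, and *Hoxa9* was at a similar level in both genotypes. These were 3 of the 7 members, where 25.0% of all 10553 tested genes passed the same threshold (18.5% higher and 6.52% lower in CD37-/-). None of the 7 had an adjusted p under 0.05 in limma with Benjamini-Hochberg adjustment over all tested genes, a threshold passed by 16 genes (0.152%). On recovered reads, limma-voom likewise gave 3 members at an unadjusted p under 0.05 and 0 at an adjusted p under 0.05. The groups did not overlap for 5 of the 7 members, 3 higher and 2 lower, against 62.0% of all tested genes (42.3% higher and 19.7% lower). The median log2 fold change, CD37-/- minus CD37 fl/fl on log2(FPKM + 1), was 0.28 over the members and 0.19 over all tested genes. As bulk RNA was measured, fewer cells expressing a gene and less RNA per cell cannot be told apart.

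**Figure D2:**
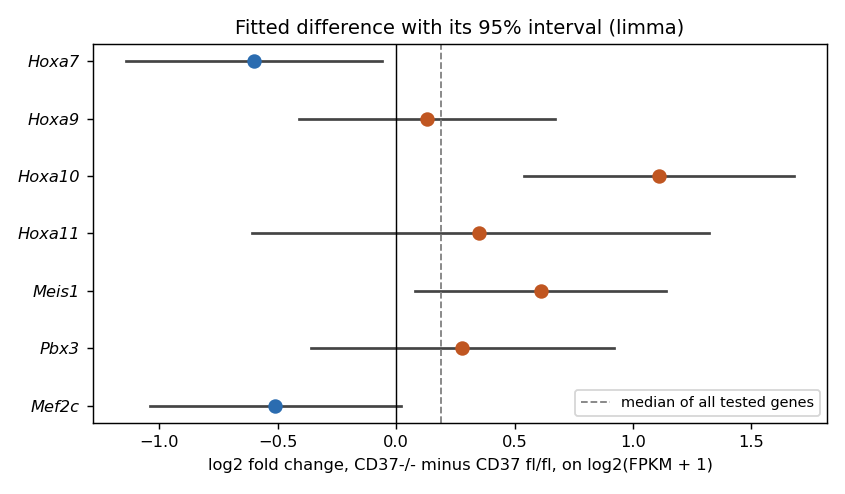
Fitted log2 fold change of each gene (points) with its 95% confidence interval from limma (lines), on log2(FPKM + 1). The interval lies above 0 for *Hoxa10* and *Meis1* and below 0 for *Hoxa7*, and the dashed line marks the median of all tested genes (0.19).

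Among the HoxA genes, *Hoxa10* (ENSMUSG00000000938, chromosome 6, 52231197 to 52240854 on the minus strand of GRCm38 in the GENCODE M21 annotation) differed most. It encodes a posterior HoxA factor of hematopoietic progenitors. Its level was 11.2 and 12.7 in CD37 fl/fl, from 561 and 719 reads, and 23.7 and 30.6 in CD37-/-, from 1373 and 2262 reads. Both CD37-/- libraries lay above both CD37 fl/fl libraries, and the gap was larger than the distance between replicates of either genotype. The mean was 11.9 ± 1.06 (SD, n = 2) against 27.1 ± 4.88 (SD, n = 2), a 2.27-fold difference. The log2 fold change was 1.11 (standard error 0.24, 95% interval 0.54 to 1.68), with an unadjusted p of 0.00269 and an adjusted p of 0.0835 from limma. Its size exceeded that of 91.8% of tested genes. When every library was rescaled to the same sum (TPM), the limma adjusted p became 0.0371, in a setting where 626 of all tested genes passed 0.05, against 16 as reported. In no other of the 14 alternatives was it under 0.05. With all 4 libraries kept, it ran up to 0.201 (without a filter on low values).

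*Hoxa10* has 2 start sites in RefSeq, and the gene value sums the transcripts of both. The 250 bases before each start are printed below next to those of *Hoxa9*, whose level did not differ detectably, and of *Mef2c* (the first of its 3 starts). The windows of *Mef2c* start 3 and *Hoxa5* are not printed, though they too lie over no annotated exon. None of the 4 printed stretches lies over one. They are from RefSeq on GRCm38.p6, written 5′ to 3′ along the strand of the gene, with CG dinucleotides in capitals, since the part of the MLL protein that is kept in its fusions binds unmethylated CpG. They lie at chr6:52240855-52241104 (*Hoxa10* start 1, minus strand), chr6:52234940-52235189 (*Hoxa10* start 2, minus strand), chr6:52227371-52227620 (*Hoxa9*, minus strand) and chr13:83503784-83504033 (*Mef2c* start 1, plus strand).
Hoxa10 start 1: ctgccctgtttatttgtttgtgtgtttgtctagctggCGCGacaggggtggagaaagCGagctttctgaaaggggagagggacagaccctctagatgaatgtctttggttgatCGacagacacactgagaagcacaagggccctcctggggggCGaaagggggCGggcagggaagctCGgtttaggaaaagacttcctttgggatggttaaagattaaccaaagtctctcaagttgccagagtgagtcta
Hoxa10 start 2: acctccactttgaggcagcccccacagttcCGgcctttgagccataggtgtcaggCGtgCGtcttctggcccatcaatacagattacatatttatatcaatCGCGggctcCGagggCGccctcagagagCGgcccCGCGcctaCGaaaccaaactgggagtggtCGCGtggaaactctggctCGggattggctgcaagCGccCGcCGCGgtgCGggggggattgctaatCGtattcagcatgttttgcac
Hoxa9: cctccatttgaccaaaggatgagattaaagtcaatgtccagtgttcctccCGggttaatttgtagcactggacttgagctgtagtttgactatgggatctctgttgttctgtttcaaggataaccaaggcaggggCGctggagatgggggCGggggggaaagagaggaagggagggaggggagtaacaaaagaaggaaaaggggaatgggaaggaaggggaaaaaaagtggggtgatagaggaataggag
Mef2c start 1: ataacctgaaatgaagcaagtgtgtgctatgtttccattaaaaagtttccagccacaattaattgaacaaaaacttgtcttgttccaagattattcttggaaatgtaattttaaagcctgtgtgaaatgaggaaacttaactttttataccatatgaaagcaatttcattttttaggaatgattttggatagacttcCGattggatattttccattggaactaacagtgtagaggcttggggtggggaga

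The *Hoxa10* starts differed in CpG content, with 7 CG in the window of start 1 and 20 in that of start 2, where the median of 32851 RefSeq windows of this length was 6. The *Hoxa9* window held 3, that of *Hoxa5* held 28, and the windows of *Mef2c* starts 1, 2 and 3 held 1, 6 and 4. The windows of *Meis1*, *Hoxa11* and *Hoxa7*, which lie over annotated exons and are not printed, held 13, 13 and 7. *Hoxa7*, lower in CD37-/-, thus held as many as *Hoxa10* start 1. Whether the CG counts go with the differences was not tested. A promoter window was found for 7 of the 8 genes named, not for *Pbx3*, giving 10 windows in all. None of the 10 held the letters TGATTNAT, a joint PBX and HOX site, TGACAG, a MEIS site, or CTA and TAG 4 bases apart, a MEF2 site, on either strand. The PBX-HOX letters were present in 2.82%, the MEIS letters in 15.9% and the MEF2 letters in 3.2% of all windows.

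*Hoxa9* (ENSMUSG00000038227, chromosome 6, 52223100 to 52231089, minus strand) encodes the HoxA factor most closely tied to MLL-rearranged leukemia. Its level was 55.6 and 60.7 in CD37 fl/fl versus 67.6 and 60.2 in CD37-/-, with reads between 4754 and 7600. The second CD37-/- library lay below the second CD37 fl/fl library, and the groups overlapped. The log2 fold change was 0.13 (standard error 0.23, 95% interval -0.41 to 0.67), with an unadjusted p of 0.576 in limma. The interval leaves room for a difference in either direction, and no alternative brought the unadjusted p under 0.05. An exon of *Hoxa9* shares 85 bases with the microRNA gene *Mir196b* on the same strand, so the reads of the gene can include its precursor.

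*Hoxa7* (ENSMUSG00000038236, chromosome 6, 52214491 to 52221854, minus strand) lies on the other side of *Hoxa9* from *Hoxa10* and went in the opposite direction to *Hoxa10*. The level of this HoxA factor, also a known MLL fusion target, was 44.2 and 43.5 in CD37 fl/fl versus 31.5 and 26.0 in CD37-/-. The CD37 fl/fl libraries were nearly equal and both were above the CD37-/- libraries. The mean was 43.9 ± 0.504 (SD, n = 2) against 28.8 ± 3.88 (SD, n = 2), 1.52-fold higher in CD37 fl/fl. The log2 fold change was -0.60 (standard error 0.23, 95% interval -1.14 to -0.06), with an unadjusted p of 0.0352 and an adjusted p of 0.174 from limma. The call depended on the scaling, as TPM rescaling gave a log2 fold change of -0.38 (limma unadjusted p = 0.173). The unadjusted p was above 0.05 whichever library was left out (0.055 without CD37-/- replicate 1, 0.178 without CD37-/- replicate 2, 0.0803 and 0.0732 without CD37 fl/fl replicates 1 and 2), and was 0.0551 with the replicate block. Exons of *Hoxa7* share 586 bases with the antisense gene *Hoxaas3*, which had between 5 and 14 reads of its own.

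*Hoxa11* (ENSMUSG00000038210, chromosome 6, 52242106 to 52245810, minus strand), the most posterior HoxA gene among the members, was low. Its level was 3.37 and 0.934 in CD37 fl/fl versus 2.56 and 2.86 in CD37-/-, from 118, 37, 104 and 148 reads. The CD37 fl/fl libraries lay on either side of the CD37-/- libraries, 3.61-fold apart. The log2 fold change of 0.35 (standard error 0.40, limma unadjusted p = 0.413) turned to -0.24 without CD37 fl/fl replicate 2 and became 0.94 without CD37 fl/fl replicate 1 (limma unadjusted p = 0.024). No direction can be given for this gene from these libraries. Its exons share 800 bases with the antisense gene *Hoxa11os*.

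The summed level of the 4 HoxA members was 114 and 118 in CD37 fl/fl versus 125 and 120 in CD37-/-. The sum differed little while its makeup differed. *Hoxa9* took 48.6% and 51.5% of the sum in CD37 fl/fl versus 53.9% and 50.3% in CD37-/-, and these overlapped. *Hoxa7* took 38.7% and 36.9% in CD37 fl/fl but 25.2% and 21.8% in CD37-/-. *Hoxa10* took 9.79% and 10.8% in CD37 fl/fl but 18.9% and 25.5% in CD37-/-.

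**Figure D3:**
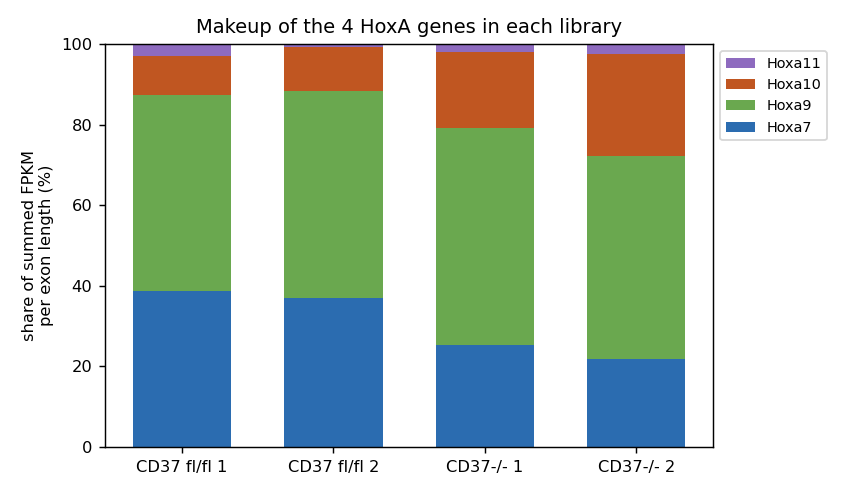
Share of each HoxA gene in the summed FPKM per exon length of the 4 HoxA members (y axis, percent) in each library (x axis). *Hoxa9* makes up between 48.6% and 53.9% of the sum in every library, while the orange *Hoxa10* block is wider and the blue *Hoxa7* block narrower in both CD37-/- libraries.

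A ratio between genes of the same library does not depend on how libraries were scaled against each other. The ratio of *Hoxa10* to *Hoxa9* was 0.201 and 0.209 in CD37 fl/fl versus 0.35 and 0.508 in CD37-/-, a 2.06-fold difference. The ratio of *Hoxa7* to *Hoxa9* was 0.796 and 0.717 in CD37 fl/fl versus 0.467 and 0.433 in CD37-/-. As a result the ratio of *Hoxa10* to *Hoxa7* was 0.253 and 0.292 in CD37 fl/fl versus 0.751 and 1.17 in CD37-/-, a 3.46-fold difference. The share of all gene pairs without overlap was not computed. The ratios restate the gene levels given above and are not separate support, and none of these ratios overlapped between the genotypes. Each had an exact two-sided permutation p of 0.333, the smallest that 2 libraries against 2 can give, so no ratio could reach 0.05.

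**Figure D4:**
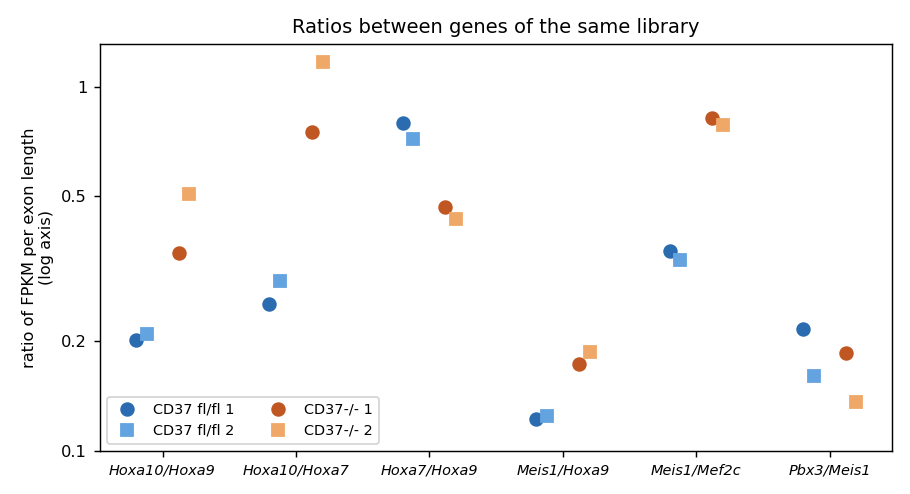
Ratio between the levels of 2 genes of the same library (y axis, log axis) for 6 pairs of genes (x axis), with 1 point per library. The pairs with *Hoxa10*, *Hoxa7* or *Mef2c* separate the genotypes, as does *Meis1* to *Hoxa9*, and *Pbx3* to *Meis1* overlaps.

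Among other transcripts of the cluster, *Hoxa2* was at 1.4 and 1.5 in CD37 fl/fl versus 1.18 and 1.32 in CD37-/-, with a log2 fold change of -0.12 (limma unadjusted p = 0.643). *Hotairm1*, an antisense noncoding RNA, was at 2.48 and 3.27 in CD37 fl/fl versus 1.04 and 1.85 in CD37-/-, and its log2 fold change was -0.67 (limma unadjusted p = 0.0538). The predicted gene *Gm28308*, on the strand of the HoxA genes, had 22 and 37 reads in CD37-/- libraries against 4 and 7 in CD37 fl/fl, with a log2 fold change of 1.01 (limma unadjusted p = 0.00798, adjusted p = 0.109). *Hoxaas3* and *Hoxa11os* stayed at or under 0.417 in every library.

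Of the TALE cofactors, *Meis1* was higher in CD37-/- LSCs and *Pbx3* was low in both genotypes. *Meis1* (ENSMUSG00000020160, chromosome 11, 18879817 to 19018985, minus strand) encodes the cofactor that shortens the time to leukemia when expressed with HOXA9. Its level was 6.76 and 7.57 in CD37 fl/fl, from 1092 and 1381 reads, and 11.7 and 11.2 in CD37-/-, from 2182 and 2681 reads. Replicates of a genotype were close to each other and the groups did not overlap. The mean was 7.17 ± 0.568 (SD, n = 2) against 11.5 ± 0.303 (SD, n = 2), a 1.6-fold difference. The log2 fold change was 0.61 (standard error 0.22, 95% interval 0.08 to 1.14), with an unadjusted p of 0.0301 and an adjusted p of 0.163 from limma.

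The *Meis1* call depended on the scaling and on single libraries. With quantile normalization the log2 fold change was 0.33 (limma unadjusted p = 0.149), and without CD37 fl/fl replicate 1 or without CD37-/- replicate 1 or 2 the unadjusted p was 0.0872, 0.133 or 0.11. Relative to *Hoxa9* in the same library, *Meis1* was at 0.122 and 0.125 in CD37 fl/fl versus at 0.173 and 0.187 in CD37-/-. *Meis1* also shows what the deposited scale does. Its span is 13.2 times its exon length, and its deposited FPKM were 0.512, 0.573, 0.884 and 0.851, which would have left it out of the test. Exons of *Meis1* share 1029 bases with the predicted gene *Gm37818* on the same strand and 896 bases with the antisense gene *Gm16140*.

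*Pbx3* (ENSMUSG00000038718, chromosome 2, 34171457 to 34373142, minus strand) encodes the PBX partner of HOXA9 and MEIS1 in leukemia. Its level was 1.46 and 1.22 in CD37 fl/fl versus 2.18 and 1.53 in CD37-/-, from 137, 129, 236 and 211 reads. Both CD37-/- libraries were above both CD37 fl/fl libraries by a narrow gap. The fitted log2 fold change was 0.28 (standard error 0.27, 95% interval -0.36 to 0.92), with an unadjusted p of 0.336 in limma, and it was 0.02 with quantile normalization. The ratio of *Pbx3* to *Meis1* was 0.216 and 0.161 in CD37 fl/fl versus 0.186 and 0.136 in CD37-/- and overlapped.

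The other TALE homeobox genes that were tested did not follow a common direction. *Pbx2* was more abundant than *Pbx3*, at 14.8 and 11.2 in CD37 fl/fl versus 16.3 and 19.3 in CD37-/-, with a log2 fold change of 0.43 (limma unadjusted p = 0.124). *Meis3*, which was not tested, was at 0.164 and 0.0909 in CD37 fl/fl versus 0.266 and 0.376 in CD37-/-. *Meis2* stayed at or under 0.00367 in every library. Of 8 other TALE homeobox genes, 4 were tested and 0 passed an unadjusted p of 0.05 in limma in either direction. The log2 fold change was above 0 for 2 and below 0 for 2, with a median of -0.04.

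*Mef2c* (ENSMUSG00000005583, chromosome 13, 83504034 to 83667080, plus strand) was lower in both CD37-/- libraries. Its level was 19.1 and 22.6 in CD37 fl/fl versus 14.2 and 14.4 in CD37-/-, with reads between 3971 and 6145. The CD37-/- libraries were nearly equal and the groups did not overlap. The mean was 20.8 ± 2.45 (SD, n = 2) against 14.3 ± 0.0777 (SD, n = 2), 1.46-fold higher in CD37 fl/fl. On the log2 scale the difference was -0.51 (standard error 0.22, 95% interval -1.04 to 0.02), and the unadjusted p of 0.0584 from limma missed 0.05. It was 0.0137 with quantile normalization, where the log2 fold change was -0.70, but 0.319 with TPM rescaling, where the log2 fold change was -0.30. *Meis1* and *Mef2c* thus lay on opposite sides, with a within-library ratio of *Meis1* to *Mef2c* of 0.354 and 0.335 in CD37 fl/fl versus 0.82 and 0.784 in CD37-/-, a 2.33-fold difference (exact two-sided permutation p = 0.333).

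*Mef2d* was at 7.1 and 13.3 in CD37 fl/fl versus 10.1 and 14.5 in CD37-/- (log2 fold change 0.29, limma unadjusted p = 0.429), and *Mef2a* stayed at or under 0.0602. Of the 10 other MEF2 genes and regulators of MEF2 proteins, among them the class IIa histone deacetylases and the salt-inducible kinases, 8 were tested and 0 passed an unadjusted p of 0.05 in limma, with a median log2 fold change of 0.22.

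Because the median of all tested genes was 0.19, the members were also set against it. Relative to that median, the log2 difference was 0.92 for *Hoxa10*, 0.42 for *Meis1*, 0.16 for *Hoxa11*, 0.08 for *Pbx3*, -0.06 for *Hoxa9*, -0.70 for *Mef2c* and -0.79 for *Hoxa7*. *Hoxa9* and *Pbx3* lay close to the median gene and were found on either side of it over the alternatives (-0.18 to 0.20 and -0.12 to 0.29). *Hoxa10* stayed between 0.78 and 1.06 and *Meis1* between 0.35 and 0.53 above the median over the alternatives, while *Hoxa7* stayed between 0.62 and 0.96 and *Mef2c* between 0.44 and 0.80 under it.

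**Figure D5:**
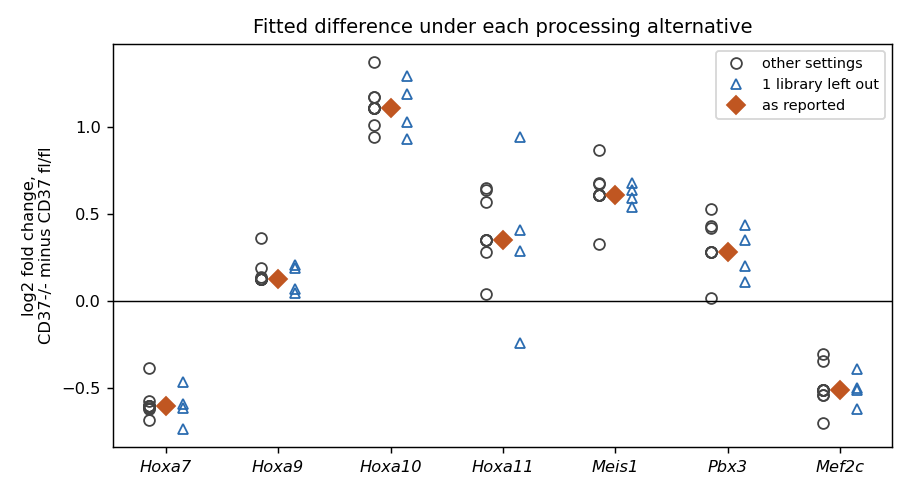
Log2 fold change of each gene (y axis) as reported (orange diamonds), with 1 library left out (blue triangles) and under the other processing settings (open circles). *Hoxa10* stays between 0.93 and 1.37, *Hoxa7* and *Mef2c* stay below 0 throughout, and *Hoxa11* is the only gene that crosses 0.

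Genes that work with or under the members were taken as lists. No gene of the 4 lists in this and the next paragraph had an adjusted p under 0.05 in limma. Of the 28 HoxB, HoxC and HoxD genes, 5 were listed and 1 was tested. This was *Hoxb4*, a regulator of stem cell self-renewal, at 1.75 and 2.81 in CD37 fl/fl versus 4.77 and 4.63 in CD37-/- (log2 fold change 0.81, limma unadjusted p = 0.0198, adjusted p = 0.137). Of 12 cofactors of MLL fusion proteins, 11 were tested, and 2 were higher and 0 lower at an unadjusted p under 0.05. Of all tested genes 18.5% were higher and 6.52% lower, so that the share at this threshold was near the background. Without overlap between the groups, 9 of the 11 were higher and 0 lower, against 42.3% and 19.7% of all tested genes. The median log2 fold change was 0.32, against 0.19 over all tested genes. *Psip1*, which encodes the chromatin tether LEDGF, was at 0.886 and 1.62 in CD37 fl/fl versus 3.35 and 3.98 in CD37-/- (log2 fold change 1.07, limma unadjusted p = 0.00732, adjusted p = 0.108). *Kmt2a* and *Mllt3*, whose human counterparts form the transgene, are in this list, and the part of transgene reads in their values was not tested.

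Of 15 target genes of HOXA9 and MEIS1, 8 were tested, and 1 was higher and 1 lower at an unadjusted p under 0.05, again near the 18.5% and 6.52% of all tested genes, with a median log2 fold change of 0.25 against 0.19. *Ccnd3*, which encodes cyclin D3, was at 32.4 and 16.0 in CD37 fl/fl versus 37.9 and 48.2 in CD37-/- (log2 fold change 0.88, limma unadjusted p = 0.0437). *Bcl2*, which encodes a survival factor, was at 2.14 and 6.19 in CD37 fl/fl versus 1.06 and 1.29 in CD37-/- (log2 fold change -1.13, limma unadjusted p = 0.0295). For both genes the CD37 fl/fl libraries lay far apart. Of 6 other targets of MLL fusions, all 6 were tested, and 1 was higher and 2 lower at that threshold, with a median log2 fold change of 0.25. *Six4*, a homeobox gene, was at 0.264 and 0 in CD37 fl/fl versus 2.84 and 2.48 in CD37-/- (log2 fold change 1.70, limma adjusted p = 0.0623). *Mecom*, which encodes EVI1, was at 10.3 and 9.42 in CD37 fl/fl versus 1.71 and 3.89 in CD37-/- (log2 fold change -1.58, limma adjusted p = 0.0806).

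The genes with the profile nearest to *Hoxa9* over the 4 libraries, by the root mean square difference of centred log2(FPKM + 1) among 9251 protein-coding genes, were *Elac2* (0.010), *Ift52* (0.011) and *Kctd1* (0.013), and 523 genes lay within 0.1. Those nearest to *Meis1* were *Nans* (0.010), *4930579G24Rik* (0.021) and *Dcun1d2* (0.022), and 245 genes lay within 0.1. With 4 libraries many genes share such a profile.

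Scaling totals ran from 15327357 to 22627494 reads per library. *Cd37*, the deleted gene, was at 88.2 and 72.8 in CD37 fl/fl versus 36.1 and 35.7 in CD37-/- (log2 fold change -1.14, limma adjusted p = 0.0771), which followed the labels and left 0.446 of the CD37 fl/fl mean, counted over all exons and not only those between the LoxP sites. Among the progenitor markers *Kit*, the sorted antigen, was at 1.56 and 2.98 in CD37 fl/fl versus 3 and 3.99 in CD37-/-. Its log2 fold change was 0.48 (limma unadjusted p = 0.161). *Cd34* was at or under 0.127 in every library, whereas the primary granule gene *Elane* was at 3502 to 3769. For the marker counts that follow, 18.5% of all tested genes were higher and 6.52% lower at an unadjusted p under 0.05 in limma. CD37 fl/fl replicate 2 stood apart in mature neutrophil markers, whose sum over 8 genes was 5432 and 782 in CD37 fl/fl versus 9824 and 7060 in CD37-/-, with 3 of the 8 higher at an unadjusted p under 0.05. Between the CD37 fl/fl libraries this sum differed 6.94-fold. Between the same libraries *Hoxa11* differed 3.61-fold, also with the lower value in replicate 2, and the other 6 members between 1.02-fold (*Hoxa7*) and 1.2-fold (*Pbx3*). The 6 erythroid markers listed summed to 81.5 and 6.78 in CD37 fl/fl versus 731 and 208 in CD37-/-, with both of the 2 tested higher at an unadjusted p under 0.05. These were the globin genes *Hbb-bs* (log2 fold change 4.29, limma unadjusted p = 0.00415) and *Hba-a1* (3.36, limma unadjusted p = 0.0201), and *Gata1* was at 0 in CD37 fl/fl replicate 2. Monocyte and macrophage markers summed to 249 to 336 in CD37 fl/fl versus 323 to 395 in CD37-/-, with 0 of 7 past an unadjusted p of 0.05 in limma. Plasmacytoid and dendritic cell markers summed to 257 to 1063 in CD37 fl/fl versus 156 to 274 in CD37-/-, with 0 of the 3 tested past it. The highest sum came mostly from *Cd74* in CD37 fl/fl replicate 1. This gene was at 895 and 108 in CD37 fl/fl versus 40 and 135 in CD37-/-. The 4 B cell markers listed summed to 30.9 and 37.0 in CD37 fl/fl versus 20.4 and 15.9 in CD37-/-. Of these, *Cd79b* was the 1 tested, at 30.0 and 36.7 in CD37 fl/fl versus 19.2 and 14.7 in CD37-/- (log2 fold change -0.94, limma unadjusted p = 0.00743). *Cd79b* made up most of the sum and had the same direction as *Mef2c*, which B cells also express. *Cd79a*, which was not tested, went the other way, at 0.806 and 0.238 in CD37 fl/fl versus 1.01 and 1.06 in CD37-/-. *Ebf1* and *Pax5* were at or under 0.108 in every library, and *Pax5* was at 0 in CD37 fl/fl replicate 2. T and NK cell markers summed to at most 1.33. The 7 progenitor and granule markers summed to 7788 and 11065 in CD37 fl/fl versus 7014 and 6398 in CD37-/-, with 2 of the 6 tested lower at an unadjusted p under 0.05. This sum was almost wholly granule genes, and *Kit* went the other way. The granule gene *Ctsg* alone was at 3540 in CD37 fl/fl replicate 2, against 943 to 1051 in the other libraries. The part of these cell types in the members' differences was not tested.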

How the data were processed

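The submitters' processing notes name fastp 0.20.1, STAR 2.7.7a, featureCounts 2.0.0, edgeR and the build mm39, and the paper's methods name limma. The strand setting of the counting is not given in the sources used here. The authors deposited FPKM values, 1 column per library, without a log. They came out as whole reads, for 98.9% of values per library, with the gene spans of GENCODE M21 on GRCm38 (tolerance 0.05 reads, met by 10.0% of values by chance). 17045 of 17104 gene identifiers (99.7%) were matched to it, and gene coordinates are those of GRCm38. FPKM were multiplied by span over exon length, where exon length is the union of all annotated exons, so that levels between genes are approximate.

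Genes with a mean of at least 1 were tested on log2(FPKM + 1), a scale that understates changes of low genes, with lmFit and eBayes with a trend (limma 3.58.1, statmod 1.5.0, R 4.3.3) and Benjamini-Hochberg adjustment at 0.05, without a block. The code was tested on simulated data. Figures were drawn with matplotlib 3.10.9, and tables with scipy 1.17.1, numpy 2.4.6 and pandas 2.3.3, under Python 3.11.15. Promoter windows were searched for exact letters on both strands.

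The members and lists were chosen with earlier results of these data known. Named genes were the members, other HoxA cluster genes with at least 10 reads in a library, the paralogs, *Cd37*, the nearest profiles and, per pathway list, the gene with the largest difference in each direction among those at an unadjusted p under 0.05 without overlap. *Kit*, *Cd34*, *Elane*, *Ctsg*, *Gata1*, *Hbb-bs*, *Hba-a1*, *Cd74*, *Cd79a*, *Cd79b*, *Pax5*, *Ebf1*, *Kmt2a* and *Mllt3* were named after their values were seen. Some genes of the cluster and of the lists are not reported here and were left out of the counts over lists. Alternatives were the deposited scale, another pseudocount or filter, quantile normalization, TPM rescaling, limma-voom on recovered reads, other variance settings, the replicate block and leaving out each library. Intervals from counting cover counting error only.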

Additional observations from a re-analysis of the deposited data

How the results depend on the processing

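*Hoxa10* kept its direction and an unadjusted p under 0.05 in all 14 alternatives, *Hoxa7* in 8 of 14 and *Meis1* in 9 of 13, and *Mef2c* reached it in 2 of 14. *Hoxa11* turned to -0.24 without CD37 fl/fl replicate 2 (0.94 without CD37 fl/fl replicate 1), and the signs of the other 6 members held in every alternative that tested them. The count of members past an unadjusted p of 0.05 was 3 and ran from 1 to 2 when a library was left out, 1 of them without either CD37-/- replicate. The median log2 fold change of the members (0.28) was 0.13 on the deposited scale and 0.13 with a mean of at least 5, both over the 5 members tested there, 0.42 with a pseudocount of 0.1, 0.04 with quantile normalization, 0.53 with TPM rescaling, 0.43 with limma-voom, and between 0.11 (without CD37-/- replicate 1) and 0.35 with a library left out.

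Over all genes, 16 passed an adjusted p of 0.05. The count was 37 on the deposited scale, 48 with a mean of at least 5, 626 with TPM rescaling and 124 with robust variance. It was 0 with a pseudocount of 0.1, without a filter, with quantile normalization, without the trend, with the replicate block and with limma-voom, and 0 to 67 with a library left out. The count at an unadjusted p (2639) was 1642 on the deposited scale, where fewer genes were tested, and 1106 (without CD37-/- replicate 2) to 2397 with a library left out. The cause of the other shifts was not tested. Of genes past an unadjusted p, 73.9% were higher in CD37-/-, against 50% with quantile normalization and 88.2% with TPM rescaling, where the median of all genes was -0.01 and 0.43.

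The replicate numbers did not pair the samples (correlation of the replicate differences across 10553 genes, r = -0.0688). With the replicate number as a block, the unadjusted limma values were 0.00396 for *Hoxa10*, 0.0403 for *Meis1* and 0.0551 for *Hoxa7*. Groups of 2 libraries and the 37 to 148 reads of *Hoxa11* limit what could be detected, and with a library left out the lone library of its genotype was assumed to vary like the others.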

Other observations

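The genes that flank the HoxA cluster on chromosome 6 were read for comparison. *Skap2*, an adaptor gene beyond *Hoxa2*, was at 38.9 and 41.8 FPKM per exon length in CD37 fl/fl versus 42.1 and 44.8 in CD37-/- LSCs, with a log2 fold change of 0.10 (limma unadjusted p = 0.647). *Hibadh*, a gene of valine breakdown beyond *Evx1*, was at 2.25 and 3.96 in CD37 fl/fl versus 4.8 and 5.28 in CD37-/- LSCs, with a log2 fold change of 0.59 (limma unadjusted p = 0.0822). Neither passed an unadjusted p of 0.05. Both were chosen for their position.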
